A study of Mus musculus with 18 samples.

Results

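C-type lectin receptors and the Syk pathway that they use were followed through 10 genes: Clec4a2, Clec4d, Clec4e, Clec4n, Clec5a, Clec7a, Clec12a, Tyrobp, Syk and Card9. They were taken by symbol from the gene tables, in which 10 of 10 were found among 24485 listed genes. Their transcripts were counted by RNA-seq in 18 libraries. The cells were bone marrow-derived macrophages (BMDMs) of Il10-/- mice on the C57BL/6J background, 12-week-old males according to the methods of the study, so every group lacked its own interleukin 10 (IL-10). The 6 groups held 3 libraries each. Unstimulated cells received no drug or cytokine, the JQ1 group received 500 nM (+)-JQ1, and the IL-10 group received 10 ng/mL IL-10. After 12 hours of this pretreatment, PBS was added for 4 hours. The other 3 groups (LPS, LPS + JQ1, LPS + IL-10) had the corresponding pretreatments and then 50 ng/mL lipopolysaccharide (LPS) for 4 hours. By the labels the LPS group had no pretreatment, by the methods it had vehicle, and unstimulated cells had neither. If vehicle was used, its effect and that of LPS cannot be told apart. The same holds for JQ1 or IL-10 and its solvent in comparisons with unstimulated cells and in the interactions. Replicate numbers stood for 3 mice, whose marrow cultures were split over the 6 groups.

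C-type lectin receptors are surface proteins of myeloid cells that bind sugars and lipids of fungi, mycobacteria and dying cells. Those that activate the cell carry a tyrosine motif in their own tail, as Dectin-1 does, or borrow one from the adaptors FcR gamma (Fcer1g) and DAP12 (Tyrobp), and the phosphorylated motif recruits the kinase Syk. Syk signals through a complex of Card9, Bcl10 and Malt1 to NF-kB, whereas inhibitory lectins recruit phosphatases. JQ1 blocks the bromodomains with which BET proteins bind acetylated histones. LPS acts through another receptor, TLR4, and is a strong inducer of some of these lectins in macrophages.

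Of the 10 genes, 7 encode receptors and lie on chromosome 6 in the mm9 build that the authors used. Clec4a2 (6, 123056446 to 123094017, plus strand), Clec4n (123179861 to 123197039, plus), Clec4d (123212125 to 123225286, plus) and Clec4e (123231807 to 123239889, minus) are neighbours in the Dectin-2 cluster. Clec12a (129292709 to 129315321, plus) and Clec7a (129411611 to 129422790, minus) lie in the Dectin-1 cluster, and Clec5a lies apart (40524897 to 40535804, minus). Tyrobp is on chromosome 7 (31198807 to 31202596, plus), Syk on chromosome 13 (52678542 to 52744161, plus, annotated under its synonym Sykb) and Card9 on chromosome 2 (26207696 to 26216438, minus). Card9 is overlapped by Gm13562, whose reads in the overlap cannot be told apart from its own in counts made without strand, and the other 9 genes by no annotated gene. Expected counts of Clec4a2 were not whole in 14 of 18 libraries, as RSEM gives where reads fit several genes, and its values are uncertain to that extent.

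Promoter windows of 300 bases, from 250 bases before to 50 bases after a gene's start, were taken from RefSeq (GRCm38.p6) for 8 of the 10 genes. Clec4n and Tyrobp had no entry. The 4 receptor genes that rose with LPS are printed 5′ to 3′ on the coding strand, since these genes kept or lost that rise under JQ1 in different ways, as described further on. Capitals mark matches on either strand to the ETS and PU.1 core GAGGAA, the AP-1 site TGANTCA, the C/EBP site TTGCNNAA and the IRF repeat GAAANNGAA, in which N is any base. The windows are chr6:123261857-123262156 for Clec4d (plus), chr6:123289822-123290121 for Clec4e (minus), chr6:40585756-40586055 for Clec5a (minus) and chr6:129349994-129350293 for Clec12a (plus).
Clec4d: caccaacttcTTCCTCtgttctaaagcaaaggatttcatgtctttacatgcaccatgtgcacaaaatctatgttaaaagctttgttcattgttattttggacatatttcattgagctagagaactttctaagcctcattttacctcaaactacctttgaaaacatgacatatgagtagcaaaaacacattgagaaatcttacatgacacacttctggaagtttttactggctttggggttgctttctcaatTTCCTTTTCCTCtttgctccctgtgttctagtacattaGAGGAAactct
Clec4e: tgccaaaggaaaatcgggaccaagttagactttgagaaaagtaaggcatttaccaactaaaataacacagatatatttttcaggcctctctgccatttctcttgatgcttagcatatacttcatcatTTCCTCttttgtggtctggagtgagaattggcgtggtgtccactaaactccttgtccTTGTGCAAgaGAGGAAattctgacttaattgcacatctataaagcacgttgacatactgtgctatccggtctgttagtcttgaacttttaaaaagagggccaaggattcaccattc
Clec5a: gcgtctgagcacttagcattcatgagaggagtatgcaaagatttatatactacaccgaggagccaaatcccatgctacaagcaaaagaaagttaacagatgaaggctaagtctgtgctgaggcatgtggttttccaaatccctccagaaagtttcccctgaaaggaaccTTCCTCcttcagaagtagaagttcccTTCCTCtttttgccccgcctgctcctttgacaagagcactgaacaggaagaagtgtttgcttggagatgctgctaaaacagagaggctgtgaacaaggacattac
Clec12a: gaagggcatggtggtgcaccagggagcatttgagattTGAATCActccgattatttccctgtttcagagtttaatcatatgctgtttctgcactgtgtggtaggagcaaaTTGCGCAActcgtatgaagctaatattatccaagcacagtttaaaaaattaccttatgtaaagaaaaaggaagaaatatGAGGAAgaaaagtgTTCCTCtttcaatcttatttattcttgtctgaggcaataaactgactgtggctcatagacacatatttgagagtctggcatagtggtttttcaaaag

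The ETS core was present in a window of 6 of the 8 genes, and in 28.1% of the 32544 distinct windows searched. Clec7a and Syk had 2 windows each, and Syk matched only in its window 2. The count is thus per gene and the share per window, and they are not alike. In Clec4e the ETS core stood 2 bases downstream of a C/EBP match, and in Clec4d an ETS match at the start overlapped the IRF match in the run TTCCTTTTCCTC. AP-1 was matched in Clec12a and Clec4a2 (7.79% of the searched windows) and C/EBP in Clec4e and Clec12a (10.8%), the latter with TTGCGCAA, which reads the same on both strands. The IRF repeat was matched in Clec4d alone (8.53%) and the STAT site TTCNNNGAA in Clec4a2 alone (8.33%). No window of the 8 genes held the NF-kB site GGGNNTTCC (5.85% of the searched windows) or the E-box CACGTG (7.17%). These matches describe letters in a short window and were not tested as binding sites.

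Totals of expected counts were 6781952 to 28289498 per library, with the smallest in unstimulated replicate 2. A floor of 3 counts corresponds to 0.106 to 0.442 CPM, and the lowest member value was an expected count of 7, for Clec4n with LPS + JQ1. Reads of the disrupted Il10 gene remained at 27.1 to 177 normalised counts per library. Of 7 macrophage markers none was at 0 in any library, and Lyz2, Cd68, Csf1r and Adgre1 were at 448 TPM or more in all 18. The other 3 reached lower values, at least 45.8 TPM for Itgam, 21.8 TPM for Mertk and 9.92 TPM for Fcgr1. Means of Itgam were 309 TPM in unstimulated cells, 86.3 with JQ1, 196 with LPS and 50.3 with LPS + JQ1, and those of Fcgr1 were 118, 10.5, 270 and 12.5 TPM. These 2 markers thus were lower with JQ1 alongside the receptors described below. Means of Lyz2 and Mertk were higher with JQ1 alone, and those of Csf1r, Adgre1 and Cd68 lower. In LPS + JQ1 against LPS, those of Lyz2, Adgre1 and Csf1r were higher, and those of Mertk and Cd68 lower. The 7 markers summed to means of 23296 TPM in unstimulated cells, 28218 with JQ1, 13491 with LPS and 18931 with LPS + JQ1, mostly Lyz2. The part of these markers in the results was not tested. Summed markers of dendritic cells, mast cells and basophils, T and NK cells, B cells and stroma reached 3.06, 0.52, 0.32, 0.84 and 8.66 TPM at most. Of 10 neutrophil markers, Ly6g was at 0 in all 18 libraries, Elane in 17 and Mpo in 16. Their summed level, mostly S100a8 and S100a9, was 34.5, 24.4 and 88.9 TPM in unstimulated replicates 1, 2 and 3, and JQ1 libraries had 12.2, 7.50 and 17.5 TPM. LPS libraries had 41.6, 36.0 and 51.7 TPM, and those of LPS + JQ1 13.3, 17.3 and 30.1 TPM. The range was 26.3 to 39.6 TPM in the IL-10 group and 31.5 to 70.0 TPM in LPS + IL-10. Some of the lectins described here are also known from neutrophils, and the part of these cells in the results was not tested. In cultures like these, fewer cells that express a gene and less RNA per cell cannot be told apart.

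On the TPM scale, which corrects for transcript length and allows genes to be compared, Tyrobp was by far the most abundant member in every group. In unstimulated cells it stood at 3315 ± 61.0 TPM (SD, n = 3), followed by the receptor Clec4d at 445 ± 36.6 TPM. Clec12a (208 ± 28.6 TPM), Clec7a (176 ± 25.2 TPM) and Syk (148 ± 5.22 TPM) formed a middle rank in which neighbours overlapped. Clec4n (97.4 ± 40.1 TPM) overlapped Syk through its highest library, at 143 TPM. Clec4a2 (56.8 ± 7.41 TPM) and Card9 (34.8 ± 3.03 TPM) followed without overlap, and Clec4e (12.8 ± 8.55 TPM) and Clec5a (6.81 ± 2.53 TPM) were lowest and overlapped. With LPS the order was Tyrobp (1764 ± 107 TPM), Clec4d (727 ± 113 TPM), Syk (461 ± 5.67 TPM) and Clec4e (453 ± 116 TPM), the last pair with overlapping values, and Card9 became the lowest member (7.32 ± 1.33 TPM). With LPS + JQ1 the receptor with the most TPM was no longer Clec4d (72.3 ± 16.3 TPM) but Clec4e (165 ± 28.1 TPM), and the values of these 2 receptors did not overlap.

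**Figure D1:**
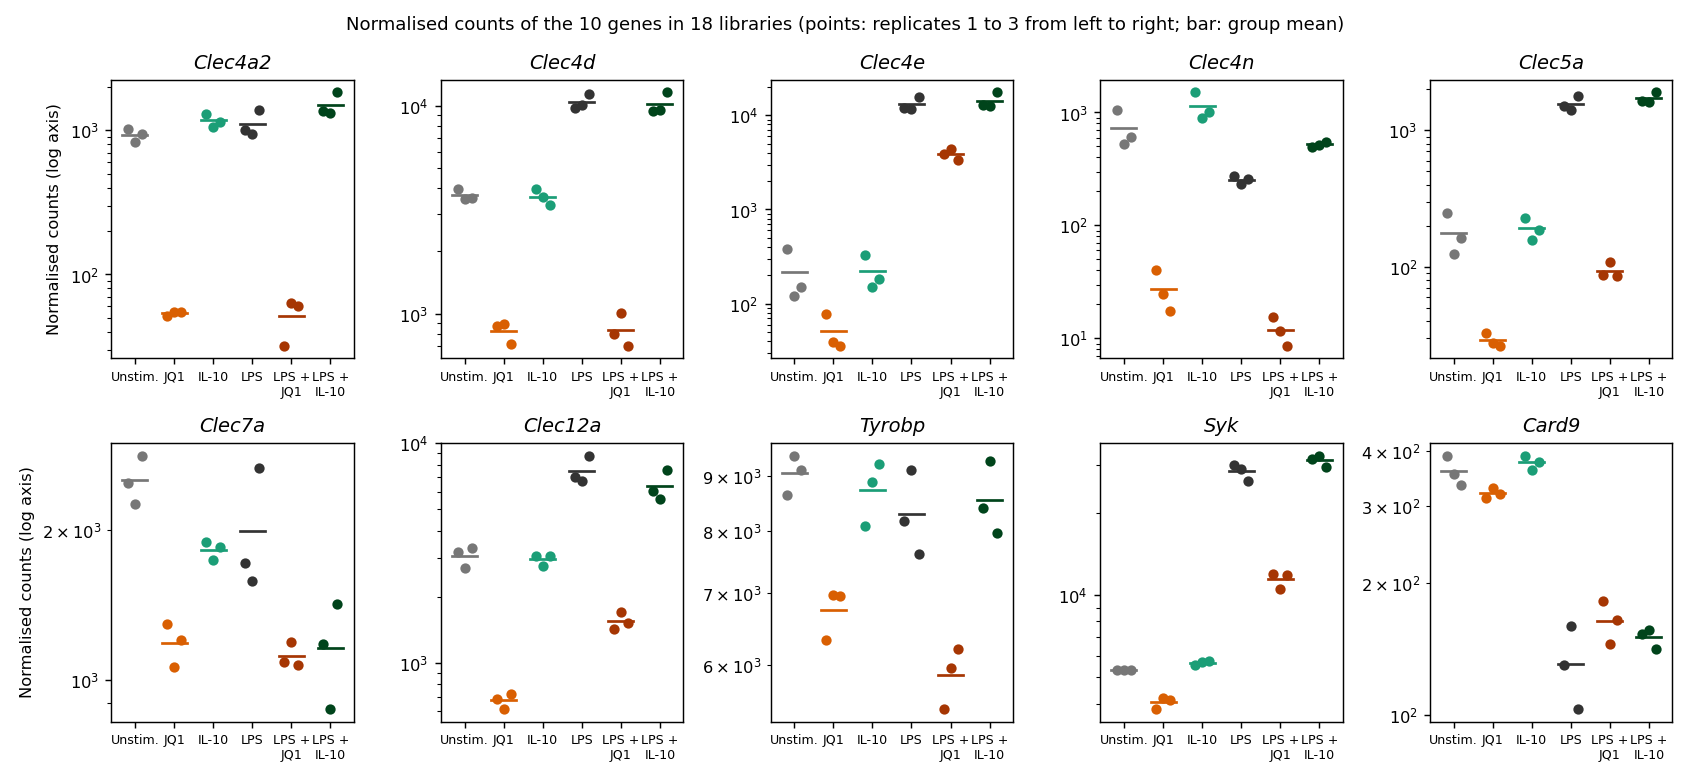
Normalised counts on a log axis for each of the 10 genes in the 18 libraries, by group, with points for replicates 1 to 3 from left to right and a bar for the group mean. Clec4e rose from a mean of 216 in unstimulated cells to 13060 with LPS, and Clec4n fell to 11.9 with LPS + JQ1.

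LPS changed the receptors in different directions. Of the 10 genes, 5 rose and 2 fell in LPS against unstimulated cells by the DESeq2 Wald test at an adjusted p under 0.05, where 31.6% of all tested genes rose and 32.9% fell. The median log2 fold change was 0.77 over the 10 genes and -0.03 over the 11390 genes that averaged 10 or more normalised counts. Normalised counts are expected counts divided by the size factor of the library.

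Clec4e encodes Mincle, a receptor for mycobacterial cord factor and for a protein of dead cells. It was at 379, 120 and 149 normalised counts in unstimulated replicates 1, 2 and 3 and at 11847, 11555 and 15779 with LPS. Every LPS library was far above every unstimulated one, although unstimulated replicate 1 was well above its 2 fellows. The log2 fold change was 5.91 ± 0.451 (SE; adjusted p = 2.33e-38), a 60.2-fold rise, and was 6.59 without unstimulated replicate 1 and 6.66 without both replicate 1 libraries. Clec5a, a DAP12-coupled receptor known for binding dengue virus, rose 8.70-fold, from 247, 123 and 162 normalised counts to 1518, 1411 and 1778 (log2 fold change 3.12 ± 0.188, adjusted p = 1.14e-60). Clec4d encodes MCL, the partner of Mincle, and rose 2.79-fold, from 3971, 3570 and 3606 to 9744, 10037 and 11311 normalised counts (log2 fold change 1.48 ± 0.125, adjusted p = 2.45e-31). For neither gene did the groups overlap.

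Clec12a, an inhibitory receptor for uric acid crystals, rose 2.44-fold, from 3201, 2713 and 3318 to 6999, 6748 and 8783 normalised counts (log2 fold change 1.29 ± 0.126, adjusted p = 7.55e-24). Clec4a2, the inhibitory receptor DCIR, was at 1019, 830 and 949 normalised counts without and 1005, 948 and 1390 with LPS, and did not pass (log2 fold change 0.25, 95% interval -0.08 to 0.59, adjusted p = 0.188). The 2 groups of Clec4a2 overlapped. Clec4n encodes Dectin-2, a receptor for fungal mannans. It went the other way from its neighbours Clec4d and Clec4e, from 1047, 524 and 607 to 276, 232 and 257 normalised counts (log2 fold change -1.52 ± 0.251, adjusted p = 4.11e-09), with no overlap. Clec7a encodes Dectin-1, the receptor for fungal beta-glucan. It was at 2483, 2256 and 2815 normalised counts without and 1714, 1583 and 2662 with LPS, so that LPS replicate 3 alone lay within the unstimulated range. It did not pass (log2 fold change -0.34, adjusted p = 0.073) but passed as a fall with the replicate number as a block (adjusted p = 0.0211), with edgeR (-0.40, adjusted p = 0.0308), and without LPS replicate 3 (-0.61, adjusted p = 6.64e-05), unstimulated replicate 2 (-0.42) or both replicate 3 libraries (-0.53).

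Downstream of the receptors, Syk rose 5.35-fold. It was at 5310, 5297 and 5296 normalised counts in unstimulated cells and 29933, 28994 and 26147 with LPS (log2 fold change 2.42 ± 0.065, adjusted p = 8.35e-298). Card9 fell over the same time, from 390, 355 and 335 to 130, 159 and 103 normalised counts (log2 fold change -1.45 ± 0.132, adjusted p = 2.22e-27). Thus kinase and adaptor moved apart, each without overlap between groups. Tyrobp was at 8644, 9402 and 9125 normalised counts without and 8165, 9126 and 7612 with LPS, and did not pass (log2 fold change -0.13, 95% interval -0.29 to 0.04, adjusted p = 0.184), but did without LPS replicate 2 (-0.20, adjusted p = 0.0336).

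These LPS values depend on the scaling for genes that changed little. With size factors from total counts the median of all genes moved from -0.03 to -0.96 in this comparison, and rises made up 20.1% of calls instead of 49.0%. Clec4a2 then fell (log2 fold change -0.67, adjusted p = 0.000288), as did Clec7a (-1.27) and Tyrobp (-1.05), of which Clec4a2 lay above that median and the other 2 genes below it. The 5 rises and the 2 falls above kept their direction and passed under that scaling. Shares of rises among calls with the main and the total-count scaling were 48.0% and 26.8% for JQ1, 42.5% and 64.9% for LPS + JQ1 against LPS, and 48.7% and 71.1% for LPS + IL-10 against LPS, where the median of all genes was -0.16, 0.29 and 0.08 with total counts. For IL-10 against unstimulated cells they were 64.0% and 61.6%, and 84.8% with limma on TPM.

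JQ1 lowered all 7 receptors in cells without LPS. In JQ1 against unstimulated cells 9 of the 10 genes fell and 0 rose, also at an unadjusted p under 0.05 and with edgeR, where 23.7% of all tested genes fell and 21.9% rose. The median log2 fold change was -2.13 over the 10 genes and 0.01 over those 11390 genes. This comparison shares the unstimulated libraries with the LPS one.

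The deepest falls were those of Clec4n and Clec4a2. Clec4n had 40.6, 24.6 and 17.4 normalised counts with JQ1 against 1047, 524 and 607 without, a 26.3-fold fall (log2 fold change -4.72 ± 0.287, adjusted p = 2.31e-58). Clec4a2 had 51.9, 55.2 and 54.9 with JQ1, 17.3-fold below unstimulated cells (log2 fold change -4.11 ± 0.200, adjusted p = 4.18e-91). These are an activating and an inhibitory receptor of the same cluster. The falls of the other 5 receptors were 6.21-fold for Clec5a, 4.57-fold for Clec12a, 4.49-fold for Clec4d, 4.25-fold for Clec4e and 2.12-fold for Clec7a. Clec5a had 32.9, 27.6 and 26.6 normalised counts with JQ1, and Clec4d 876, 895 and 713. Clec12a had 686, 614 and 720, and Clec7a 1294, 1065 and 1206. None of these overlapped the unstimulated values. Clec4e had 77.8, 39.4 and 35.7 with JQ1, and its log2 fold change of -2.09 ± 0.465 (adjusted p = 3.36e-05) became -1.40 (adjusted p = 0.00193) without unstimulated replicate 1.

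The signalling genes moved little by comparison. Tyrobp had 6334, 6974 and 6955 normalised counts with JQ1, a 1.34-fold fall (log2 fold change -0.42 ± 0.083, adjusted p = 2.22e-06), and Syk had 3823, 4192 and 4111, a 1.31-fold fall (-0.39 ± 0.066, adjusted p = 2.77e-08). Card9 had 313, 330 and 320 and did not pass (log2 fold change -0.17, 95% interval -0.39 to 0.06, adjusted p = 0.236). It passed as a fall with total-count scaling (-0.34, adjusted p = 0.00686). In this comparison the summed neutrophil markers, at 7.50 to 17.5 TPM with JQ1 and 24.4 to 88.9 TPM without, moved in the same direction as the receptors, as did the means of the macrophage markers Itgam (86.3 against 309 TPM) and Fcgr1 (10.5 against 118 TPM), and their part was not tested. The macrophage markers Lyz2 (24665 against 18407 TPM) and Mertk (116 against 69.2 TPM) were higher with JQ1.

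**Figure D2:**
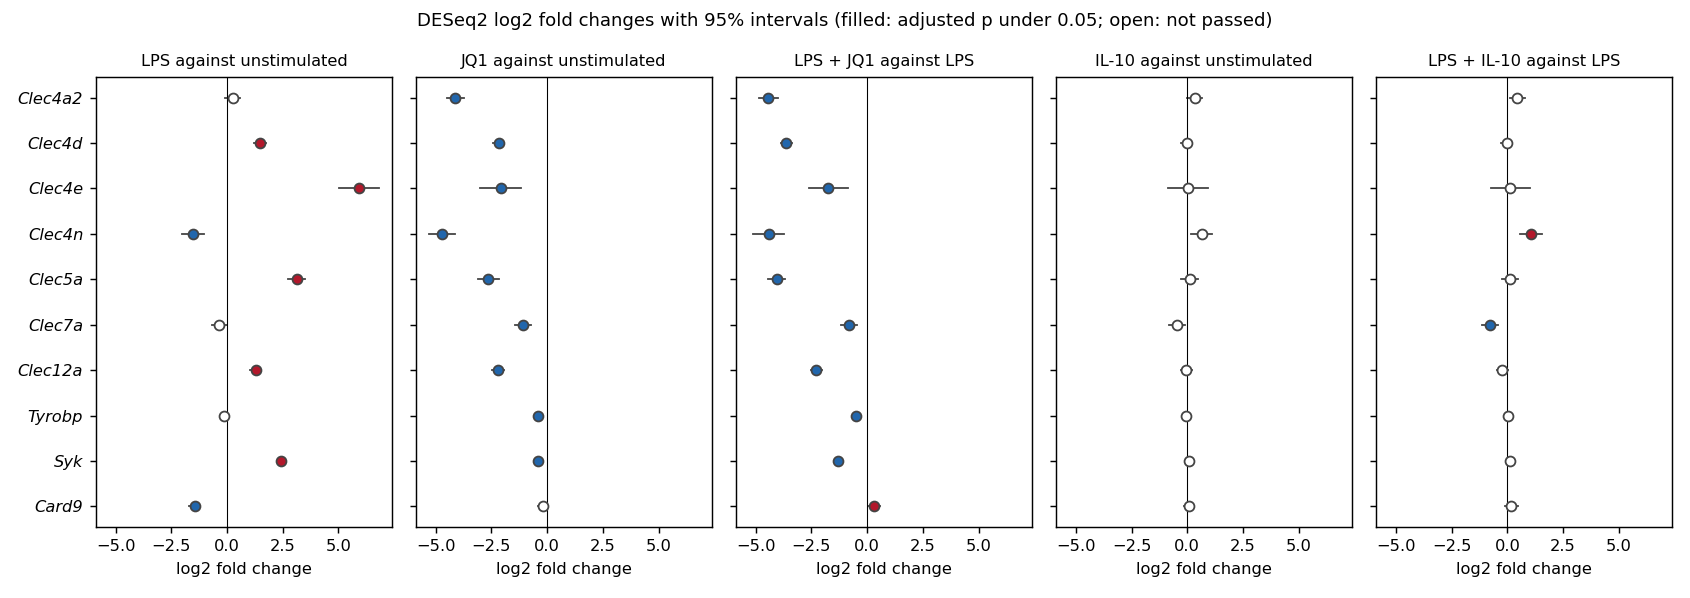
Log2 fold changes of the 10 genes with 95% intervals in 5 comparisons, filled where the DESeq2 adjusted p was under 0.05 and open otherwise. All 7 receptors were lower with JQ1 both without and with LPS, whereas with IL-10 and LPS Clec4n was higher and Clec7a lower.

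In LPS-stimulated cells JQ1 again lowered every receptor. In LPS + JQ1 against LPS 9 genes fell and 1 rose, where 32.9% of all tested genes fell and 24.4% rose, and the median log2 fold change was -2.02 over the 10 genes and -0.09 over the 11390 genes. Clec4a2 fell 21.5-fold, to 32.03, 63.2 and 60.3 normalised counts (log2 fold change -4.43 ± 0.208, adjusted p = 2.82e-98). Clec4n fell 21.3-fold, to 15.5, 11.6 and 8.62 (-4.41 ± 0.357, adjusted p = 5.65e-34). Clec5a fell 16.7-fold, to 87.2, 109 and 86.2 (-4.06 ± 0.200, adjusted p = 5.91e-90), and thereby ended below all 3 unstimulated libraries. The same held for Clec4d, which fell 12.4-fold to 798, 1012 and 702 (-3.63 ± 0.128, adjusted p = 2.38e-173).

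Clec12a fell 4.85-fold, to 1427, 1707 and 1512 normalised counts (log2 fold change -2.28 ± 0.127, adjusted p = 1.75e-70). Clec12a, Clec4a2, Clec4n and Clec7a likewise ended below every unstimulated library. Clec4e fell 3.38-fold, to 3873, 4416 and 3319 (-1.76 ± 0.448, adjusted p = 0.000231), and so remained above every unstimulated library. Clec7a fell 1.77-fold, to 1087, 1195 and 1073 (-0.83 ± 0.175, adjusted p = 7.05e-06), but on the TPM scale the limma test missed the threshold (-0.48, adjusted p = 0.0529). Syk fell 2.48-fold, to 11977, 10523 and 11799 (-1.31 ± 0.065, adjusted p = 5.68e-89), still above the unstimulated level. Tyrobp fell 1.41-fold, to 5458, 5962 and 6204 (-0.50 ± 0.084, adjusted p = 9.76e-09), a call that was lost with total-count scaling (-0.12, adjusted p = 0.199). Card9 was called higher, at 182, 145 and 165 normalised counts against 130, 159 and 103 with LPS alone (0.32 ± 0.142, adjusted p = 0.047). The Card9 groups overlapped, and the call was lost without replicate 1 (0.23) or replicate 3 (0.17) of both groups, and without LPS replicate 1 (0.31) or 3 (0.17) or LPS + JQ1 replicate 1 (0.23) or 3 (0.31). The summed neutrophil markers were lower here too, at 13.3 to 30.1 TPM against 36.0 to 51.7 TPM, and so were the means of Itgam (50.3 against 196 TPM) and Fcgr1 (12.5 against 270 TPM). Means of Lyz2 (15998 against 10214 TPM), Adgre1 (1064 against 908 TPM) and Csf1r (636 against 613 TPM) were higher.

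Whether the LPS response itself changed with JQ1 was tested with the interaction of LPS and JQ1. It passed for 4 of the 10 genes, 3 with a lower and 1 with a higher LPS effect under JQ1, where 23.8% and 17.7% of all tested genes passed in these directions. Upward differences made up 42.6% of calls, and 85.4% with total-count scaling, which moved the median of all genes from -0.05 to 0.50. In LPS + JQ1 against JQ1, which shares no library with LPS against unstimulated, 4 genes rose (27.6% of all tested genes) and 3 fell (31% of all tested genes). Rises made up 47.1% of calls, and 25.6% with total counts.

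Clec4d, which rose with LPS, showed no rise with LPS in the presence of JQ1. Its 798, 1012 and 702 normalised counts with LPS + JQ1 overlapped the 876, 895 and 713 with JQ1 alone (log2 fold change 0.02, 95% interval -0.24 to 0.27, and -0.35 with total-count scaling, where the median of all genes was -0.42), against 1.48 without JQ1, and the interaction was -1.46 ± 0.181 (adjusted p = 1.64e-14). Clec5a rose 3.24-fold with LPS under JQ1 instead of 8.70-fold (interaction -1.43 ± 0.311, adjusted p = 2.59e-05), and Syk 2.83-fold instead of 5.35-fold (interaction -0.92 ± 0.093, adjusted p = 1.61e-21). Clec4e rose 75.8-fold under JQ1 and 60.2-fold without, an LPS response whose difference did not pass (interaction 0.33, 95% interval -0.93 to 1.60, adjusted p = 0.721). Without unstimulated replicate 1 the interaction was -0.35 (adjusted p = 0.654), so that library sets which of the 2 folds is the larger. The adjoining genes Clec4d and Clec4e thus both fell with JQ1, while the test found a changed LPS response in Clec4d. The 2 interactions were not tested against each other.

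Clec12a rose 2.30-fold under JQ1 and 2.44-fold without (interaction -0.08, 95% interval -0.44 to 0.27, adjusted p = 0.751, and 0.47 with total-count scaling). Clec4n fell with LPS under JQ1 as well (log2 fold change -1.21 ± 0.383, adjusted p = 0.00337), a call lost without JQ1 replicate 1 (-0.81) and with edgeR (-1.16, adjusted p = 0.0787). Its interaction did not pass (0.30, 95% interval -0.59 to 1.2). It passed with limma on log2(TPM + 1) (1.24, adjusted p = 0.00878) but not on log2(TPM + 0.1). Means of Clec4n were 3.25 TPM with JQ1 and 1.16 TPM with LPS + JQ1, near the added 1, so that call depended on the added value. Card9 fell less with LPS under JQ1 (log2 fold change -0.97 ± 0.126) than without (-1.45), with an interaction of 0.48 ± 0.182 (adjusted p = 0.0227). That call was lost in 7 of 15 fits that left out a mouse or a library. These were the fits without all replicate 1 (0.30) or replicate 3 (0.39) libraries, unstimulated replicate 1 (0.42), JQ1 replicate 1 (0.46), LPS replicate 3 (0.34), or LPS + JQ1 replicate 1 (0.39) or 3 (0.47). Tyrobp was called lower in LPS + JQ1 against JQ1 (-0.20 ± 0.084, adjusted p = 0.0291), and 7 of 9 such fits lost the call, with values of -0.15 to -0.21. They left out replicate 1, 2 or 3 of both groups, JQ1 replicate 2 or 3, or LPS + JQ1 replicate 1 or 2. The Tyrobp call was also lost with edgeR (-0.15, adjusted p = 0.113) and with DESeq2 on the compared groups alone (-0.14, adjusted p = 0.063). Clec4a2 and Clec7a passed neither in LPS + JQ1 against JQ1 (-0.06 and -0.09) nor in the interaction (-0.31 and 0.26). The Clec7a interaction passed without LPS replicate 3 (0.53, adjusted p = 0.0219) and without all replicate 3 libraries (0.48). It also passed with total-count scaling (0.81, adjusted p = 0.00436) and with limma on log2(TPM + 1) (0.80, adjusted p = 0.0282). With total counts Clec7a was called lower in LPS + JQ1 against JQ1 (-0.46, adjusted p = 0.019), where the median of all genes was -0.42.

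**Figure D3:**
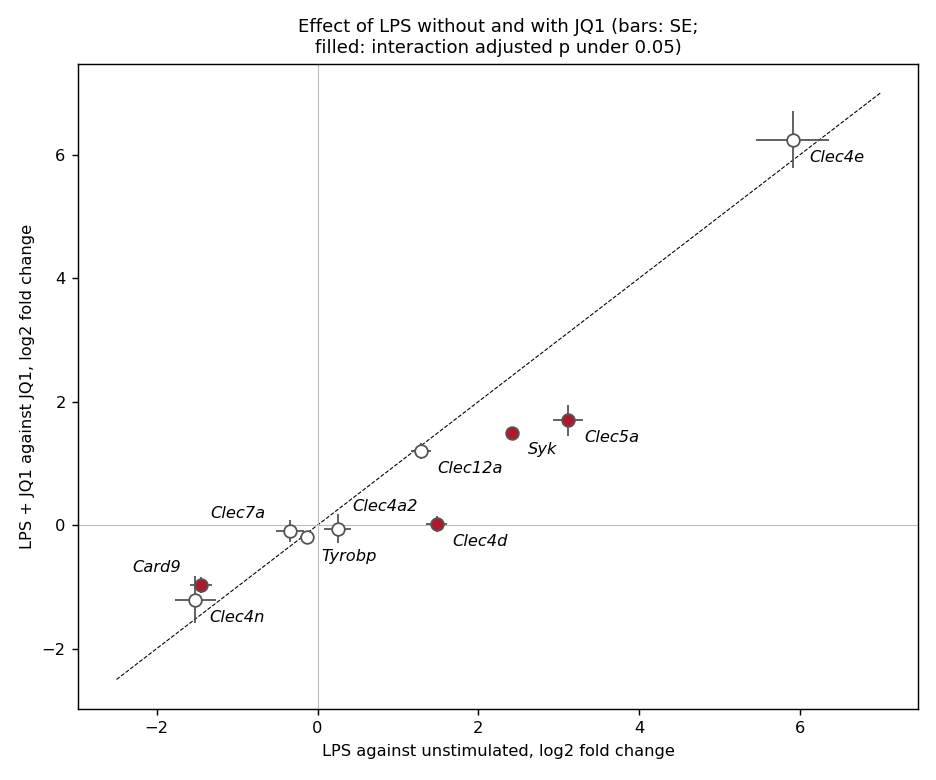
Log2 fold change of LPS in cells without JQ1 (horizontal axis) and with JQ1 (vertical axis) for the 10 genes, with SE bars, a dashed line of equality, and filled points where the interaction passed at an adjusted p under 0.05. Clec4d lies at 1.48 without and 0.02 with JQ1, whereas Clec4e lies near the line at 5.91 and 6.24, and below it without unstimulated replicate 1 (interaction -0.35).

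IL-10 left most of the genes within the spread of the replicates. In IL-10 against unstimulated cells 0 of 10 genes passed with the main DESeq2 fit, edgeR or limma, where 1.8% of all tested genes rose and 1.01% fell. At an unadjusted p under 0.05 there were 2, Clec4n and Clec7a, and both passed with the replicate number as a block. Clec4n had 1505, 898 and 999 normalised counts with IL-10 against 1047, 524 and 607 without, higher in each of the 3 mice (log2 fold change 0.64 ± 0.245, adjusted p = 0.181, and 0.0122 with the block). It passed too without unstimulated replicate 1 (log2 fold change 1.00, adjusted p = 0.00019) and without both replicate 1 libraries (0.74). Clec7a had 1889, 1743 and 1849 against 2483, 2256 and 2815, lower in each mouse and without overlap (-0.46 ± 0.174, adjusted p = 0.164, and 0.0406 with the block). DESeq2 on the compared groups alone called Clec7a (-0.46, adjusted p = 4.42e-06) and Clec4a2 (0.33, adjusted p = 0.0276). Clec4a2 had 1307, 1060 and 1150 normalised counts with IL-10 against 1019, 830 and 949, without overlap. The Syk groups did not overlap either (0.09, adjusted p = 0.844 in the main fit).

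With LPS, Clec4n and Clec7a passed in these directions. The LPS libraries are also the controls of LPS + JQ1 above. In LPS + IL-10 against LPS 1 gene rose and 1 fell, where 8.38% of all tested genes rose and 8.81% fell, and the median log2 fold change of the 10 genes was 0.12. Clec4n rose 2.06-fold, from 276, 232 and 257 to 499, 518 and 550 normalised counts, with no overlap (log2 fold change 1.04 ± 0.252, adjusted p = 0.000495). Without the libraries of replicate 3 its value was 1.01 and the call was lost (adjusted p = 0.122). Clec7a fell 1.71-fold, from 1714, 1583 and 2662 to 1181, 876 and 1421 normalised counts, again without overlap (-0.77 ± 0.175, adjusted p = 0.000154). Clec4a2 had 1357, 1319 and 1837 against 1005, 948 and 1390 (0.44 ± 0.170, adjusted p = 0.0582) and passed with the block (adjusted p = 0.0328), without LPS replicate 3 (0.63), LPS + IL-10 replicate 2 (0.52) or both replicate 3 libraries (0.46). Clec4e, Clec4d and Clec5a had log2 fold changes of 0.12, -0.03 and 0.13, with 95% intervals of -0.75 to 1.00, -0.27 to 0.22 and -0.22 to 0.48, and Syk, Card9, Clec12a and Tyrobp did not pass. Clec12a (-0.23) passed as a fall without LPS + IL-10 replicate 3 (-0.37, adjusted p = 0.0157). Syk passed as a rise with total-count scaling (0.23, adjusted p = 0.00125).

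LPS acted on the 10 genes in the presence of IL-10 with no interaction that passed. In LPS + IL-10 against IL-10 6 genes rose (33.2% of all tested genes) and 3 fell (33.8% of all tested genes). Clec4e rose 64.6-fold, Clec5a 8.88-fold, Syk 5.50-fold, Clec4d 2.78-fold and Clec12a 2.16-fold, and Clec4n, Card9 and Clec7a fell with log2 fold changes of -1.12, -1.34 and -0.65. Clec4a2 was called higher (0.36 ± 0.169, adjusted p = 0.0489), but fell with total-count scaling (-0.47), and 5 of 9 fits without a mouse or a library lost the call, with values of 0.18 to 0.38. They left out replicate 2 or 3 of both groups, IL-10 replicate 2 or 3, or LPS + IL-10 replicate 3. Rises made up 49.6% of all calls here, and 21.0% with total counts. The interaction of LPS and IL-10 passed for 0 of 10 genes with DESeq2, at an unadjusted p under 0.05, with edgeR and with limma, where 4% of all tested genes passed upwards and 3.44% downwards. Upward differences were 53.7% of calls, and 73.6% with total counts. The widest interval among the 10 genes was that of Clec4e, at -1.15 to 1.35.

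The 2 pretreatments were compared directly in LPS-stimulated cells. In LPS + JQ1 against LPS + IL-10 8 genes were lower and 0 higher (0 at an unadjusted p under 0.05 and with edgeR, and 1, Card9, with limma on TPM and with total counts), where 31.6% of all tested genes were lower and 23.8% higher. The higher share of calls was 42.9%, and 61.2% with total counts. Clec4n differed most, 43.7-fold (log2 fold change -5.45 ± 0.354, adjusted p = 5.82e-52), followed by Clec4a2 at 29.1-fold (-4.86 ± 0.208, adjusted p = 6.23e-119) and Clec5a at 18.2-fold (-4.19 ± 0.200, adjusted p = 9.29e-96). Clec7a was at 1087, 1195 and 1073 normalised counts with LPS + JQ1 and the LPS + IL-10 libraries at 1181, 876 and 1421, which overlapped (-0.05, 95% interval -0.40 to 0.29, adjusted p = 0.824).

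The mixture of the 7 receptors shifted as well as their level. Their summed TPM was 1116, 865 and 1031 in unstimulated replicates 1, 2 and 3, and JQ1 took it to 227, 195 and 201. The IL-10 libraries held 1183, 951 and 1018 TPM. LPS libraries held 1429, 1486 and 2048 TPM, those of LPS + JQ1 347, 443 and 334 TPM, and those of LPS + IL-10 1512, 1583 and 2206 TPM. The sums with JQ1 and with LPS + JQ1 were thus below those of all other groups, and no test was run on them. Mincle made up 1.23 ± 0.690% of the receptor TPM in unstimulated cells, 27.2 ± 1.24% with LPS and 43.8 ± 1.60% with LPS + JQ1. Clec4d kept 44.6 ± 2.53% and 44.3 ± 2.33% without and with LPS and fell to 19.2 ± 1.26% with LPS + JQ1. Dectin-2 made up 9.51 ± 2.85% at rest, 14.9 ± 2.71% with IL-10 and 1.21 ± 0.190% with LPS, and Dectin-1 17.6 ± 1.92%, 12.7 ± 0.950% and 4.86 ± 0.768%. With JQ1 alone Dectin-1 held 34.7 ± 2.64%. Clec12a stayed between 15.5% and 20.7% on average in all 6 groups. The summed TPM of the 5 activating receptors was 2.79 ± 0.201 times that of the 2 inhibitory ones (Clec4a2 and Clec12a) in unstimulated cells. It was 3.92 ± 0.481 times (JQ1) and 2.72 ± 0.256 times (IL-10) in the other groups without LPS, and 3.92 ± 0.119 times (LPS), 3.82 ± 0.383 times (LPS + JQ1) and 4.35 ± 0.137 times (LPS + IL-10) in those with LPS.

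**Figure D4:**
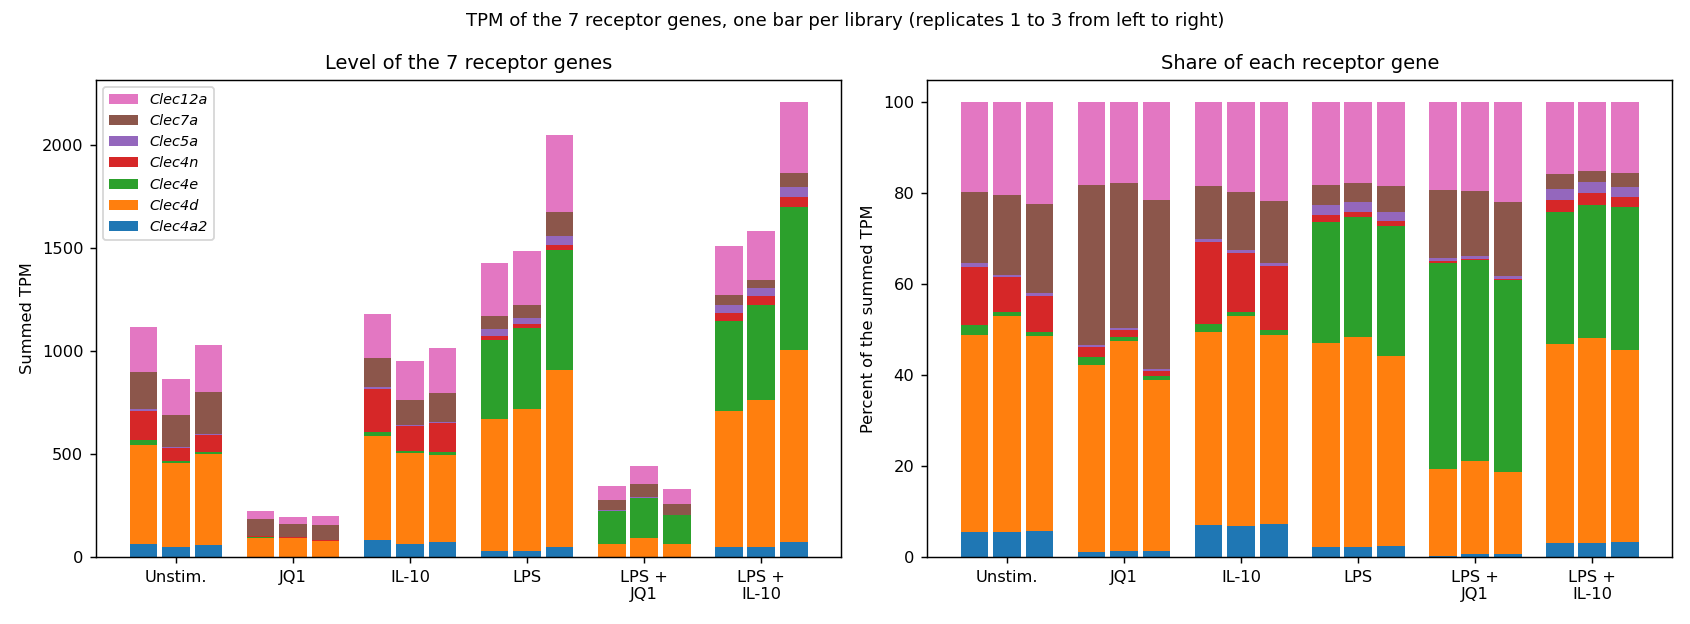
Summed TPM of the 7 receptor genes in each library (left) and the share of each gene in that sum (right), one bar per library with replicates 1 to 3 from left to right. Clec4e takes a mean share of 43.8% with LPS + JQ1, where the sums are 347, 443 and 334 TPM.

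The adaptors that carry the activating receptors moved apart with LPS. FcR gamma (Fcer1g), used by Mincle, MCL and Dectin-2, rose from a mean of 3966 to 13795 normalised counts (log2 fold change 1.80 ± 0.071, adjusted p = 9.59e-142), whereas Tyrobp did not pass. The ratio of Tyrobp to Fcer1g TPM was 2.62, 3.15 and 2.79 in unstimulated cells and 0.767, 0.840 and 0.649 with LPS, so DAP12 transcripts outnumbered those of FcR gamma only without LPS. With LPS + JQ1 the ratio was 0.658, 0.715 and 0.788. JQ1 alone did not change Fcer1g past the threshold (-0.10, adjusted p = 0.276).

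Genomic neighbours were read in order along chromosome 6. In the Dectin-2 cluster 6 genes averaged 100 or more normalised counts, and JQ1 lowered all 6 with and without LPS. Clec4a1 stands at the start of this row and averaged 447 normalised counts in unstimulated cells, 14.9 with JQ1, 1608 with LPS and 13.7 with LPS + JQ1. Clec4a3, which is no member of the 10, averaged 259 normalised counts in unstimulated cells and 15.4 with JQ1. Among LPS-treated groups it averaged 152 (LPS), 5.86 (LPS + JQ1) and 511 (LPS + IL-10). Like Clec4n it fell with LPS (log2 fold change -0.78, adjusted p = 0.00225) and rose with LPS + IL-10 against LPS (1.76, adjusted p = 9.28e-12). Reads can be shared between Clec4a paralogs, so these values are uncertain. At the far end of the Dectin-1 cluster, Olr1, which encodes the receptor LOX-1 for oxidised LDL, went the other way under JQ1 in LPS-stimulated cells only. It rose from a mean of 463 with LPS to 2399 with LPS + JQ1 (log2 fold change 2.37 ± 0.140, adjusted p = 1.73e-62), while its cluster neighbours Clec12a and Clec7a fell. Without LPS, Olr1 was near the floor, at means of 5.14 normalised counts in unstimulated cells and 1.54 with JQ1. That difference did not pass (-1.63, adjusted p = 0.0631).

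**Figure D5:**
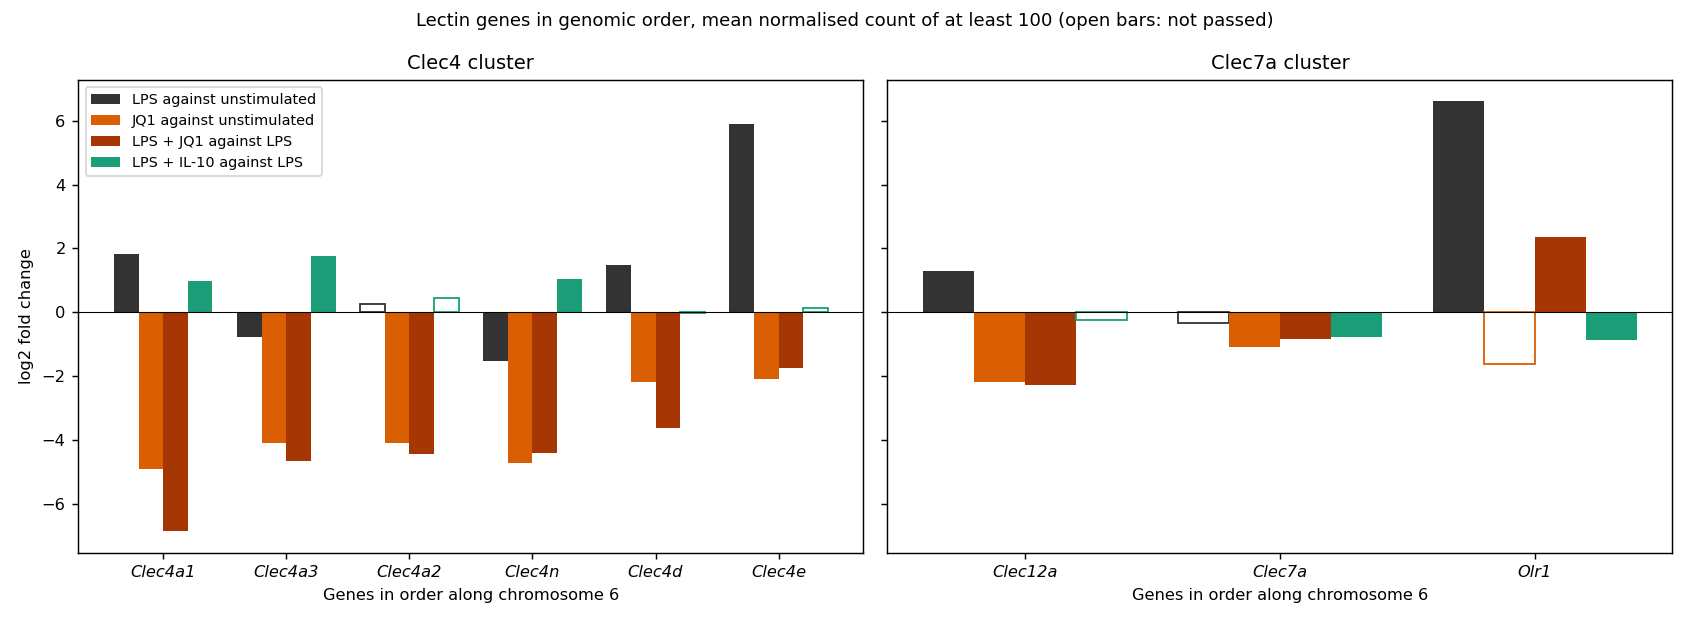
Log2 fold changes in 4 comparisons for the lectin genes that averaged 100 or more normalised counts, in their order along chromosome 6, with open bars where the adjusted p was 0.05 or more. The 6 genes of the Clec4 cluster were all lower with JQ1, and Olr1 was higher in LPS + JQ1 against LPS (2.37).

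Of 29 other C-type lectin receptor genes, 21 could be tested for LPS, and 9 rose and 4 fell, where 31.6% of all tested genes rose and 32.9% fell. Their median log2 fold change was 0.41. With limma on TPM 6 of these genes rose and 6 fell. Among those that averaged 100 or more normalised counts, the limit for the genes named from this and the next 2 lists, the largest changes were rises of Cd69, an early activation marker (10.73), Olr1 (6.61), Clec2d, a ligand of the NK cell receptor Nkrp1d (2.66), and Clec4a1 (1.84). With JQ1 11 of 20 fell and 0 rose (23.7% and 21.9% of all tested genes), which included Clec4a1 (-4.92), Clec4a3 (-4.08), the B cell and macrophage receptor Cd72 (-2.26) and Cd302 (-1.79). In LPS + JQ1 against LPS 15 of 20 fell (32.9% of all tested genes) and 1, Olr1, rose (24.4%), with a median of -1.56. In LPS + IL-10 against LPS 5 of 14 rose and 2 fell (8.38% and 8.81% of all tested genes), with Clec4a3 (1.76), Clec4a1 (0.97) and the mannose receptor Mrc1 (0.52) higher and Olr1 (-0.88) lower. With IL-10 alone 5 of 19 rose and 0 fell (1.8% and 1.01% of all tested genes), among them Clec4a3 (0.92), Clec4a1 (0.83), Mrc1 (0.75) and Cd72 (0.46). Only 2 rose with edgeR and 0 with limma on TPM.

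Among 14 other receptors and adaptors that signal through such tyrosine motifs, 3 rose, 4 fell and 7 did not pass with LPS, against 31.6% and 32.9% of all tested genes that rose and fell. Cd300lb fell (-6.34, adjusted p = 1.29e-291), and Trem2, the lipid receptor of the same DAP12 pathway, fell by 0.32. With JQ1 6 of 13 fell and 0 rose (23.7% and 21.9% of all tested genes), among them Pira2 (-4.21), Cd300ld (-0.91) and Trem2 (-0.82), and in LPS + JQ1 against LPS 7 of 13 fell and 0 rose (32.9% and 24.4%). In LPS + IL-10 against LPS 3 of 9 rose and 0 fell (8.38% and 8.81%), with Cd300lb (2.33) among the rises and 1 fall at an unadjusted p under 0.05. With IL-10 alone 0 of 10 passed with DESeq2, edgeR or limma (1.8% and 1.01% of all tested genes rose and fell), and at an unadjusted p under 0.05 there were 2 rises and 1 fall.

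Of 36 genes that act with Syk and Card9, 26 rose, 9 fell and 1 did not pass with LPS, where 31.6% of all tested genes rose and 32.9% fell. The median log2 fold change was 0.89. With limma on TPM 16 of these genes rose and 14 fell, where 23.2% of all calls were rises. Src, a kinase that phosphorylates the tyrosine motifs, rose by 5.78, Malt1, the protease partner of Card9 and Bcl10, by 5.51 and the adaptor Lcp2 (SLP-76) by 4.66, whereas Inpp5d, the phosphatase SHIP-1, fell by 4.32. Malt1 thus went from a mean of 347 to 15850 normalised counts while Card9 went from 360 to 131, and Bcl10 rose from 900 to 1749 (0.95 ± 0.071). On the TPM scale Bcl10 moved less, from a mean of 69.9 to 79.3 TPM, so its rise depended on the scaling. In LPS + JQ1 against LPS 24 fell, 4 rose and 8 did not pass, against 32.9% and 24.4% of all tested genes that fell and rose, with a median of -0.83. Among genes that averaged 100 or more normalised counts the largest falls were those of the kinases Fgr (-3.93) and Src (-3.80), of Lcp2 (-2.33) and of Pik3cb (-1.88). JQ1 alone lowered 17 and raised 8 of the 36 (23.7% and 21.9% of all tested genes), with Fgr (-4.18), Src (-2.34) and Blnk (-1.40) among the largest changes. In LPS + IL-10 against LPS 9 of 35 rose and 10 fell (8.38% and 8.81%), with Fgr (1.91) and Vav1, an exchange factor downstream of Syk (1.85), higher and Blnk (-0.90) and Inppl1 (-0.71) lower, and with IL-10 alone 4 of 35 rose and 0 fell (1.8% and 1.01%), with 5 falls at an unadjusted p under 0.05 and 1 with edgeR. The interaction of LPS and JQ1 passed upwards for 4 and downwards for 22 of 35 of these genes (17.7% and 23.8% of all tested genes), and that of LPS and IL-10 for 3 and 8 of 35 (4% and 3.44%). With limma on TPM the JQ1 interaction passed upwards for 9 and downwards for 10, where 82.8% of all calls were upwards. The balance of its directions thus depended on the scaling.

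The genes whose pattern over the 18 libraries was most like that of a member were sought among 8377 genes averaging 100 or more normalised counts, by Pearson's r of log2(normalised count + 1). These libraries share groups and mice, so r describes a common pattern over the groups. The most like genes were Ms4a7 and Pik3cg for Clec4d (r = 0.996 and 0.993), Dst and AW112010 for Clec4e (0.997 and 0.996), Creb5 and Slamf9 for Clec5a (0.995 and 0.993) and Chmp4b and Anxa7 for Syk (0.996 and 0.995). They were Ccr3 and Siglec1 for Clec4a2 (0.987 and 0.987), Capn5 and Fcgr4 for Clec12a (0.985 and 0.985), Tle1 and Vps18 for Card9 (0.987 and 0.987), Cd37 and S1pr2 for Tyrobp (0.983 and 0.980) and Zbtb2 and LOC100038947 for Clec4n (0.980 and 0.979). Clec7a stood furthest from other genes, with Egr2 and Plau at 0.900 and 0.871.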

How the data were processed

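Gene tables of 18 libraries were used as deposited. The authors prepared stranded libraries depleted of ribosomal RNA, sequenced paired ends of 50 bases, extracted reads with TagDust, used STAR for alignment to mm9 and RSEM 1.2.31 for gene quantities, both under default settings, in which RSEM ignores strand and divides reads that fit several genes. The deposited expected counts were rounded to whole numbers, and 5.40% to 6.63% of values per library were not whole. The deposited TPM values are the authors' relative abundances per transcript length and served for levels and for limma. The authors' FPKM values and lengths were not used in a test.

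The members and gene lists were chosen with earlier results of these data known, so no list is independent evidence of a direction. Groups and replicate numbers came from the sample titles. All replicate 1 libraries ran on lane 7 and all replicate 3 libraries on lane 8, and replicate 2 ran on lane 7 without and lane 8 with LPS. The Wald test of DESeq2 1.42.0 (R 4.3.3) was fitted to the 18 libraries together, with the group as its single term and median-of-ratios size factors. A gene was called where its p, adjusted by Benjamini and Hochberg over all tested genes, was under 0.05. Intervals are 1.96 SE on either side. Alternatives were the edgeR 4.0.16 quasi-likelihood test, TMM and total-count scaling, at least 10 counts in at least 3 libraries, limma 3.58.1 on log2(TPM + 1) and log2(TPM + 0.1) for genes with at least 1 TPM in at least 3 libraries, a replicate block, lane as a covariate, the compared groups alone, and leaving out each mouse and each library. The fits were tested on simulated counts.

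The labels describe matched cultures of 3 mice, so replicate numbers paired the libraries. Deviations from the group means of same-numbered libraries had a mean correlation of 0.126 for LPS against unstimulated, 0.319 for LPS + IL-10 against LPS and -0.04 for LPS + JQ1 against LPS. Replicates of a group differed by more than counting noise, so all were kept as separate samples. Named genes were the 10 members, Il10, up to 4 called genes per list and comparison with the largest change and an average of 100 or more normalised counts, and the 2 most like genes per member. Bcl10 and values of Clec4a3 and Fcer1g outside these comparisons were added after their values were seen. A gene that the rule names is not reported here. Positions came from GENCODE vM1 on mm9, and promoter windows from RefSeq on GRCm38.p6. Counting floors cover counting error only, and reads had no molecular identifiers. Intervals rest on the DESeq2 SE, which includes the spread between replicates.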

Additional observations from a re-analysis of the deposited data

Results flagged for a closer look

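For 4 genes the effect of JQ1 differed between cells with and without LPS by a test of the difference itself. The interaction of LPS and JQ1 was -1.46 for Clec4d, with JQ1 effects of -2.17 without and -3.63 with LPS, and -1.43 for Clec5a, with effects of -2.63 and -4.06. It was -0.92 for Syk, with effects of -0.39 and -1.31, and 0.48 for Card9, with effects of -0.17 and 0.32. All are on the log2 scale, from DESeq2 with an adjusted p under 0.05. The Card9 difference was lost in 7 of 15 fits that left out a mouse or a library, and those of the other 3 genes were kept in all 15.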

How the results depend on the processing

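Of the counts of called genes among the 10, 184 stayed within 1.5 times the main count under the alternatives and 8 did not. In IL-10 against unstimulated cells the count of 0 became 2 with the replicate block (Clec4n and Clec7a), 2 with the compared groups alone (Clec4a2 and Clec7a), and 0 to 1 when a mouse or library was left out. In LPS + IL-10 against LPS the count of 2 became 4 with total-count scaling and 4 with limma on log2(TPM + 0.1), and 3 with the block. For the interaction of LPS and JQ1 the count of 4 became 7 with total-count scaling and 7 with limma on log2(TPM + 1). The pairing of libraries by mouse changed no other call among the 10 genes than those of Clec4n and Clec7a (IL-10), Clec7a (LPS) and Clec4a2 (LPS + IL-10 against LPS). Where the main value or the alternative passed the test, directions turned only for scalings by total counts or TPM. Clec4a2 turned to -0.67 (total counts), -0.55 (TPM + 1) and -0.56 (TPM + 0.1) in LPS against unstimulated, and to -0.47, -0.39 and -0.39 in LPS + IL-10 against IL-10. Clec4d turned to -0.35 with total counts in LPS + JQ1 against JQ1. In the interaction of LPS and JQ1, Clec12a turned to 0.47 with total counts, Tyrobp to 0.48, 0.41 and 0.41, Cd300ld to 0.08, 0.06 and 0.03, Fcer1g to 0.21, 0.14 and 0.14, and Cd302 to 0.00 with total counts. Total counts and TPM move the median of all genes, which in LPS against unstimulated was -0.03 in the main analysis and -0.96 with total counts. With 3 libraries per group and down to 7 counts for Clec4n, small differences of the low genes were not detectable at this depth.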
